A study of Homo sapiens with 21 samples.

Results

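The solute carrier family SLC30A encodes transporters, most of which move zinc out of the cytosol. Its members SLC30A1 to SLC30A10 were taken from the gene count table by symbol, so 10 of the 62699 genes in the table are described, and all 10 passed the filter on low counts. SLC30A8 was the most abundant member per length in WT cells, and it was 7.09-fold lower in ISL1-/-, 8.21-fold lower in PAX6-/- and 2.23-fold lower in PDX1-/- cells that carried the control vector. SLC30A4 moved the other way in PDX1-/- cells, in which it was 1.89-fold higher. SLC30A2 was lower in ISL1-/- than in WT cells that carried the ISL1 vector, from few reads. The remaining 7 members passed the test in none of the 16 comparisons made across all libraries.

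Zinc transporters fall into a pair of opposed families. Most SLC30A proteins (also called ZnT) lower cytosolic zinc by export from the cell or by loading of organelles, and SLC39A proteins (also called ZIP) raise it. In pancreatic islets, beta cells package insulin as crystals around zinc, and the granule transporter encoded by SLC30A8 supplies that zinc. SLC30A8 is also made in alpha cells, and its protein is a common target of autoantibodies in autoimmune diabetes.

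RNA was measured in islets made in culture from H1, an established human embryonic stem cell line. The 4 genotypes are WT and homozygous knockouts (-/-) of ISL1, PAX6 or PDX1, each a gene for a transcription factor of pancreatic endocrine cells. On day 11 of differentiation all cells received a lentivirus that carried ISL1 together with the blue fluorescent protein BFP (the ISL1 vector) or BFP alone (the BFP vector), and cells positive for BFP were sorted on day 18. The 8 groups are WT with BFP (2 libraries, replicates 1 and 3), WT with ISL1 (2, replicates 1 and 2), ISL1-/- with BFP (3), ISL1-/- with ISL1 (3), PAX6-/- with BFP (3), PAX6-/- with ISL1 (3), PDX1-/- with BFP (3) and PDX1-/- with ISL1 (2, replicates 2 and 4). All groups share the lentiviral transduction and the sort for BFP, and the labels name neither the number of clones behind a genotype nor the promoter of the vectors. The series calls the replicates biological and does not say whether they were separate differentiations, so p-values measure the spread between these libraries.

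The 21 libraries held 36.8 M to 60.2 M counts in genes and 31584 to 37392 detected genes. The mitochondrial share of counts was 3.17% in PAX6-/- with ISL1 replicate 3 and 3.84% in PDX1-/- with ISL1 replicate 4, against 1.28 to 1.93% in the other 19 libraries. These 2 libraries also had low SLC30A1, SLC30A6, SLC30A7 and SLC30A9, and more genes passed the tests in most comparisons without them, so counts are given with and without them. ISL1 was 71.6 to 96.8 CPM in the ISL1-/- libraries and 306 to 519 CPM in the WT libraries. The other knockouts with BFP also lay below WT, at mean ISL1 levels of 193 CPM in PAX6-/- and 153 CPM in PDX1-/-. PAX6 in PAX6-/- libraries overlapped the WT range, PDX1 in PDX1-/- libraries was not below it, and ISL1 counts did not separate the vectors in any genotype, so gene counts do not check those labels. All 12 general endocrine markers were detected in every group.

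To compare genes with one another, levels were expressed per length, as CPM (counts per 1000000 of the scaled library size) per kilobase of exon, or RPKM. In WT with BFP, SLC30A8 was the highest member at 65.2 ± 7.43 RPKM (SD, n = 2). SLC30A9 followed at 26.4 ± 1.80 RPKM and SLC30A5 at 20.5 ± 1.90 RPKM. SLC30A7 at 13.4 ± 0.599 RPKM and SLC30A6 at 12.7 ± 0.767 RPKM were neighbours whose libraries overlapped. Below them stood SLC30A1 at 7.87 ± 1.11 RPKM, SLC30A10 at 4.75 ± 1.33 RPKM and SLC30A4 at 1.63 ± 0.105 RPKM. SLC30A2 at 0.354 ± 0.427 RPKM and SLC30A3 at 0.066 ± 0.0179 RPKM were last, and their libraries overlapped.

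The place of SLC30A8 in this order differed between genotypes. SLC30A8 was the fourth member in ISL1-/- with BFP at 9.19 ± 1.61 RPKM (SD, n = 3), where its libraries overlapped those of SLC30A7 and SLC30A6, and the sixth in PAX6-/- with BFP at 7.94 ± 2.25 RPKM, overlapping SLC30A1, SLC30A6 and SLC30A7. It was second in ISL1-/- with ISL1 at 18.5 ± 4.71 RPKM, next to SLC30A9 at 20.4 RPKM, and overlapped SLC30A9 and SLC30A5 there. In PDX1-/- with BFP it remained first at 29.3 ± 0.687 RPKM, above SLC30A9 at 22.3 ± 1.42 RPKM. In that group SLC30A4, at 3.08 ± 0.374 RPKM, stood above SLC30A10 at 1.95 ± 0.292 RPKM, the reverse of their order in WT with BFP.

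SLC30A8 accounted for 40.8% and 44.4% of the family's summed RPKM in the 2 libraries of WT with BFP and for 53.7% and 45.8% in those of WT with ISL1. Its share was 10.5 to 15.6% in ISL1-/- with BFP, 17.4 to 29.95% in ISL1-/- with ISL1 and 7.87 to 14.6% in the 6 PAX6-/- libraries. It was 27.3 to 37.7% in the 5 PDX1-/- libraries, so no knockout library reached the WT range. Summed over all 10 members, RPKM was 147 to 186 in WT libraries and 54.8 to 107 in knockout libraries. The other 9 members together gave 82.5 to 88.2 RPKM in WT libraries and 42.1 to 77.7 RPKM in knockout libraries. In its own group, SLC30A8 stood at the 97.5th percentile of all genes tested in WT with BFP and at the 78.8th in PAX6-/- with BFP.

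**Figure D1:**
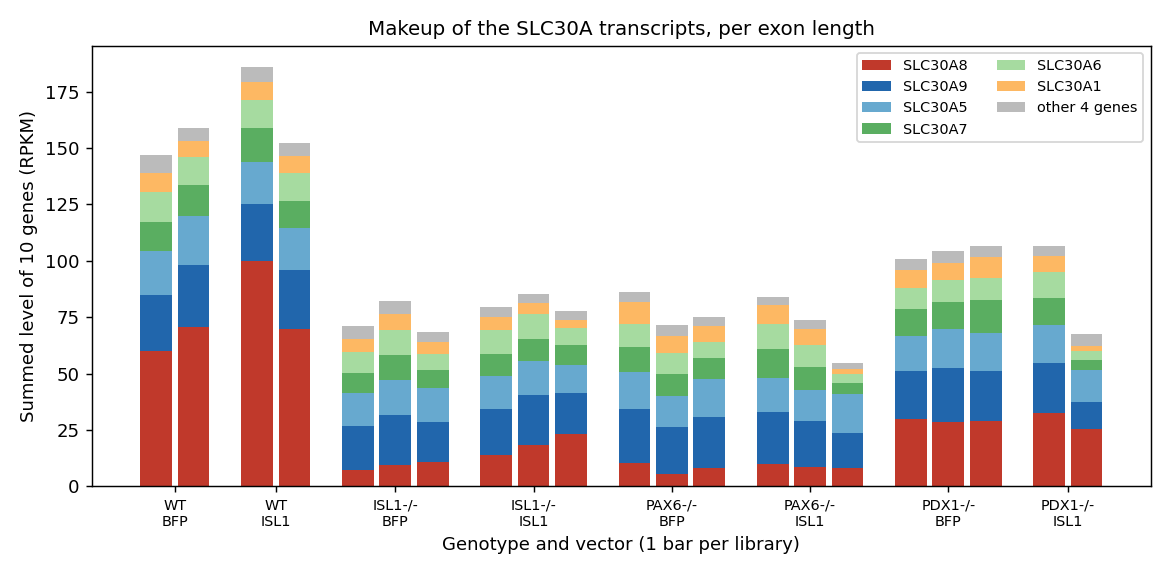
Summed RPKM of the 10 members in each of the 21 libraries, stacked by member, with the 4 lowest members drawn as 1 segment. The SLC30A8 segment makes up 40.8 to 53.7% of the bars of the 4 WT libraries and at most 37.7% of a knockout library's bar.

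SLC30A8 (chromosome 8, 116950273 to 117176714, plus strand) was counted 1982 to 29873 times per library, so counting error is small beside the spread between libraries. Levels of 1 gene are given from here on in CPM. SLC30A8 was 376 and 442 CPM in WT with BFP, and 627 and 438 CPM in WT with ISL1. It was 46.9, 59.5 and 66.8 CPM in ISL1-/- with BFP, and 63.7, 35.4 and 50.5 CPM in PAX6-/- with BFP. In PDX1-/- with BFP it was 189, 180 and 183 CPM. All 4 WT libraries therefore lay above all 17 knockout libraries. PDX1-/- libraries lay between WT and the others, and ISL1-/- with BFP overlapped PAX6-/- with BFP. The highest group mean was 10.7-fold the lowest.

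**Figure D2:**
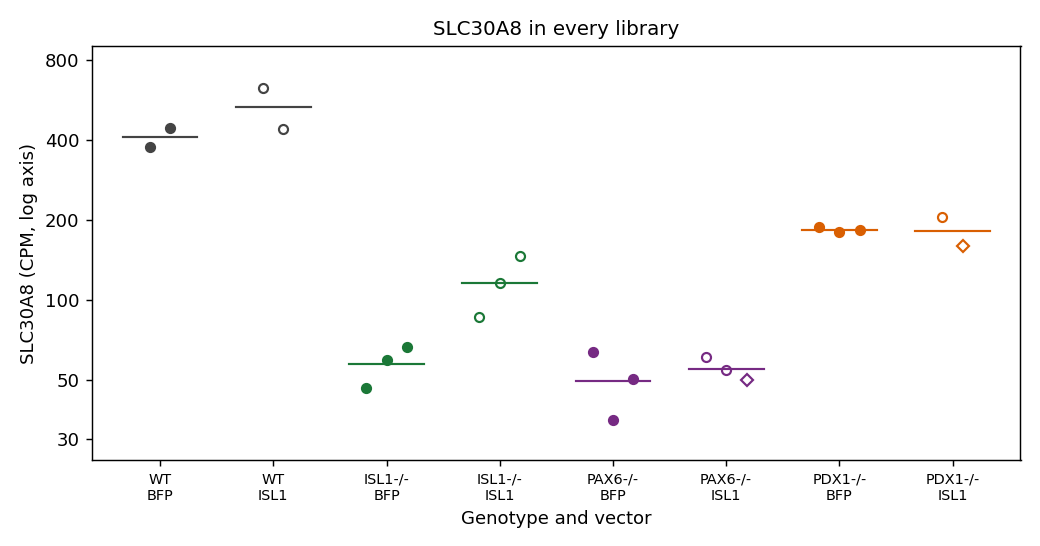
SLC30A8 in each library by group, in CPM on a log axis. Filled symbols are BFP libraries, open symbols are ISL1 vector libraries, diamonds are the 2 libraries that stand apart and the line is the group mean. WT libraries lie at 376 to 627 CPM, above every knockout library.

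Under the BFP vector, SLC30A8 was lower than in WT by log2 -2.83 in ISL1-/- cells (SE 0.27, 95% interval -3.39 to -2.26, adjusted p = 7.55e-06, edgeR quasi-likelihood test with Benjamini-Hochberg adjustment over all genes tested). In PAX6-/- cells the same contrast was -3.04 (SE 0.27, interval -3.60 to -2.47, edgeR adjusted p = 6.86e-06). In PDX1-/- cells it was -1.15 (SE 0.26, interval -1.70 to -0.61, edgeR adjusted p = 0.00903), and the adjusted p was 0.096 without WT with BFP replicate 3. These comparisons share the 2 WT libraries. Fewer cells that make SLC30A8 and less SLC30A8 RNA per cell cannot be told apart in sorted bulk populations.

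Compared directly, SLC30A8 was lower in ISL1-/- than in PDX1-/- cells with BFP by log2 -1.67 (SE 0.24, interval -2.18 to -1.16, edgeR adjusted p = 0.000636) and lower in PAX6-/- than in PDX1-/- cells by -1.88 (SE 0.24, interval -2.40 to -1.37, edgeR adjusted p = 0.000263). ISL1-/- and PAX6-/- cells differed by 0.21 (SE 0.24, edgeR adjusted p = 0.957). The interval of that last difference, -0.29 to 0.71, allows a change of either sign.

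Under the ISL1 vector, SLC30A8 was 86.7, 116 and 146 CPM in ISL1-/- cells and 60.9, 54.6 and 50.2 CPM in PAX6-/- cells. It was 205 CPM in replicate 2 and 160 CPM in replicate 4 of PDX1-/- cells. All of these lay below the WT libraries with the same vector. Relative to WT with ISL1 the log2 fold change was -2.20 in ISL1-/- (4.58-fold lower, edgeR adjusted p = 0.000224) and -3.27 in PAX6-/- (9.64-fold lower, edgeR adjusted p = 4.09e-06). In PDX1-/- it was -1.55 (2.92-fold lower, edgeR adjusted p = 0.0252). The last call rested on single libraries: adjusted p was 0.341 without WT with ISL1 replicate 1, 0.0929 without its replicate 2 and 0.055 without PDX1-/- with ISL1 replicate 4. It was 0.9999 in limma voom and 0.924 in an edgeR fit of the groups compared alone.

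The ISL1 vector was set against BFP within each genotype. In ISL1-/- cells all 3 libraries with the ISL1 vector lay above all 3 with BFP, and SLC30A8 was 2.01-fold higher (log2 1.01, SE 0.24, interval 0.51 to 1.51). This did not pass the threshold in edgeR (unadjusted p = 0.000535, adjusted p = 0.0870). It passed in the fit without the 2 libraries that stand apart (edgeR adjusted p = 0.00914), in DESeq2 (adjusted p = 0.00962) and in limma voom (adjusted p = 0.00132). In WT cells the vectors differed by 0.38 (SE 0.29, edgeR adjusted p = 0.9999), in PAX6-/- cells by 0.15 (SE 0.24, edgeR adjusted p = 0.812) and in PDX1-/- cells by -0.01 (SE 0.26, interval -0.57 to 0.54, edgeR adjusted p = 0.978). In these 3 genotypes the 2 vectors' libraries overlapped. The difference between the vector effects in ISL1-/- and WT cells was 0.63 (SE 0.37, interval -0.16 to 1.42, edgeR adjusted p = 0.9999), so the effect was not shown to differ between these genotypes.

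Hormone genes and cell markers also differed between the genotypes, in part with SLC30A8 and in part against it. INS, which encodes insulin, was 7185 and 5651 CPM in WT with BFP, and 2252, 2392 and 1700 CPM in ISL1-/- with BFP. It was 938, 803 and 637 CPM in PAX6-/- and 186, 163 and 87.5 CPM in PDX1-/- cells with BFP. PDX1-/- cells thus had the lowest INS and the highest SLC30A8 of the knockouts under BFP. GCG, which encodes glucagon, was 36250 and 51320 CPM in WT with BFP and 14970, 19600 and 16280 CPM in PDX1-/- with BFP. In ISL1-/- with BFP it was 90.9, 74.2 and 85.3 CPM, and in PAX6-/- with BFP 29.1, 15.7 and 77.9 CPM. GCG therefore had the same 2 low and 2 high genotypes under BFP as SLC30A8.

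In ISL1-/- cells with the ISL1 vector, GCG was 2197, 2689 and 5362 CPM, above all BFP libraries of that genotype (log2 5.36, edgeR adjusted p = 0.0176). PDX1-/- with ISL1 replicate 4 had 25610 CPM of INS and 106100 CPM of GCG, against 164 and 11660 CPM in replicate 2, while its SLC30A8 was the lower of the 2. The summed level of 12 alpha cell markers was 43090 to 57990 CPM in WT, 1958 to 2024 CPM in ISL1-/-, 2250 to 3309 CPM in PAX6-/- and 18320 to 23180 CPM in PDX1-/- with BFP. GCG made up most of this sum in WT with BFP, at a mean of 43780 CPM. The median log2 difference of the alpha cell markers from WT was -1.55 in ISL1-/-, -0.83 in PAX6-/- and -1.19 in PDX1-/- with BFP. By that median PDX1-/- lay further below WT than PAX6-/-, unlike SLC30A8. The sum of 12 beta cell markers was 7716 to 8834 CPM in WT, 2485 to 3140 in ISL1-/-, 1308 to 1704 in PAX6-/- and 1095 to 1181 in PDX1-/- with BFP. INS made up most of it in WT, at a mean of 6418 CPM. The median log2 difference of these markers was -0.50 in ISL1-/-, -1.20 in PAX6-/- and -1.62 in PDX1-/-. For 12 endocrine markers the sum was 23780 to 29340 CPM in WT, 27770 to 37960 in ISL1-/-, 18690 to 31700 in PAX6-/- and 50820 to 56810 in PDX1-/-. Other lists moved in other ways in these groups: the sum of 8 enterochromaffin cell markers was 963 to 1122, 2577 to 3474, 1537 to 2426 and 4043 to 4659 CPM, that of 8 liver markers 17140 to 19760, 6926 to 9912, 5716 to 7847 and 4173 to 4806 CPM, and that of 8 delta cell markers 733 to 882, 255 to 291, 268 to 395 and 316 to 344 CPM. The sum of 4 markers of PPY and GHRL cells was 193 to 214 CPM in WT and 3078 to 4633 CPM in PAX6-/- with BFP. Within it, mean GHRL was 79.1 CPM in WT and 3258 CPM in PAX6-/-, while PPY went the other way, at 2.66 and 0.0503 CPM. The sum of 6 endocrine progenitor markers was 627 to 772 CPM in WT and 1655 to 2375 CPM in PAX6-/- with BFP. In ISL1-/- with BFP 1 alpha marker, and in PAX6-/- with BFP 1 beta marker, was at 0 in every library. The part of cell composition in the SLC30A8 differences was not tested.

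Among 16153 genes with a mean of at least 1 CPM, the 5 whose log2 CPM followed SLC30A8 most closely over the 21 libraries were CSGALNACT1 (Pearson r 0.94), ACVR1C (0.936), SCIN (0.935), VEGFC (0.932) and CDH8 (0.931). They encode an enzyme of chondroitin sulfate synthesis, an activin receptor, an actin-severing protein, a lymphatic growth factor and a cadherin. These values describe 21 libraries that fall into 8 groups, and the genes share libraries and scaling.

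SLC30A4 (chromosome 15, 45479606 to 45522755, minus strand) encodes a transporter that loads zinc into endosomal and secretory vesicles. It was 12.5 and 13.7 CPM in WT with BFP and 21.3, 26.0 and 26.9 CPM in PDX1-/- with BFP. It was 15.3, 16.9 and 16.6 CPM in ISL1-/- and 16.3, 12.1 and 16.1 CPM in PAX6-/- with BFP. All 3 PDX1-/- libraries with BFP lay above all other 18 libraries. PDX1-/- exceeded WT by log2 0.92 (SE 0.24, interval 0.42 to 1.42, edgeR adjusted p = 0.0203). Leaving out replicate 2 or 3 of PDX1-/- with BFP, or either WT library, gave adjusted p-values of 0.0618 to 0.213, and no filter on low counts gave 0.0962. ISL1-/- and PAX6-/- cells were below PDX1-/- cells by log2 -0.60 (edgeR adjusted p = 0.107) and -0.74 (edgeR adjusted p = 0.0637), and both passed without the 2 libraries that stand apart.

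In PDX1-/- cells with the ISL1 vector SLC30A4 was 17.3 CPM in replicate 2 and 9.51 CPM in replicate 4, below all 3 BFP libraries. The vector contrast there was log2 -0.88 (SE 0.24, edgeR adjusted p = 0.0238). Adjusted p was 0.331 without replicate 4, one of the 2 libraries that stand apart, and 0.139 without both. It was 0.0695 without replicate 2 and 0.0815 without replicate 3 of PDX1-/- with BFP. It reached 0.699 in limma voom, 0.347 in edgeR on the groups compared alone and 0.073 without a filter. In ISL1-/- cells SLC30A4 was 11.4, 12.5 and 11.6 CPM with the ISL1 vector, below all BFP libraries (log2 -0.46, edgeR adjusted p = 0.603, and 0.0458 without both libraries). The vector effects in PDX1-/- and WT cells differed by -1.11 (SE 0.35, edgeR adjusted p = 0.127). The genes whose level followed SLC30A4 most closely over the 21 libraries were JAZF1 (Pearson r 0.95), ZDHHC13 (0.937), PLEKHA1 (0.936), GRAMD2B (0.93) and PRKAG2 (0.93). SLC30A4 shares 139 exon bases with SLC30A4-AS1 and 215 with HMGN2P46, both on the opposite strand, and these genes had 0 to 19 and 48 to 142 counts per library against 321 to 1457 for SLC30A4. The strand setting of the counting is not given in the sources used here.

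SLC30A4, SLC30A2 and SLC30A1 are the members whose start regions are shown, the first pair because they passed a test beside SLC30A8 and SLC30A1 because it is the classic target of MTF1, the transcription factor that senses zinc. The sequences are the 250 bases before the gene start in RefSeq (GRCh38.p14, minus strand, 5′ to 3′). Capitals mark each match to TGCACNC or TGCGCNC, the core of the metal response element bound by MTF1, on either strand. The regions are chr15:45522756-45523005 for SLC30A4, chr1:26046119-26046368 for SLC30A2 and chr1:211579162-211579411 for SLC30A1.
SLC30A4: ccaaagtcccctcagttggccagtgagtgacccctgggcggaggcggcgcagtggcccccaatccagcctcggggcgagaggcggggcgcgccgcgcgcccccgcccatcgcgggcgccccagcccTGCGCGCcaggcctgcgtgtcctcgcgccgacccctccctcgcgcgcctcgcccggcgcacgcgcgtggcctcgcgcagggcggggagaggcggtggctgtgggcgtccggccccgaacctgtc
SLC30A2: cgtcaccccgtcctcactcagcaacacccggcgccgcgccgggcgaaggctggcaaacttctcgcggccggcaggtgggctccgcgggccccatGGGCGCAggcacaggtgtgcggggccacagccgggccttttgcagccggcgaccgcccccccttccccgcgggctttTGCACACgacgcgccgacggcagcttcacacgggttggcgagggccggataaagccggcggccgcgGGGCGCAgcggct
SLC30A1: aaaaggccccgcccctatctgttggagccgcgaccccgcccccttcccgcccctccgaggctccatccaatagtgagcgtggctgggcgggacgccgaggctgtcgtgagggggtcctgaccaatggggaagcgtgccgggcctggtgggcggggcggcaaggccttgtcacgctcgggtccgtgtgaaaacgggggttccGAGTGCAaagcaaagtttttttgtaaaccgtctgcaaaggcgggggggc
RefSeq start regions were found for 9 of the 10 members, all but SLC30A8, and numbered 11. The core was present in 6 of the 11 regions, belonging to 5 members, and in 24.8% of 35114 regions of the same length. TAAT, the core read by homeodomain proteins such as ISL1, PAX6 and PDX1, was present in 1 of the 11 regions and in 47.4% of all regions, and CANNTG, the E-box, in 6 of 11 and in 61.8%. The shown regions were 79.6%, 75.2% and 66.4% G and C in the order printed, against a median of 58% over all regions. A match is a run of letters and not a measured binding site.

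SLC30A2 (chromosome 1, 26037252 to 26046118, minus strand) encodes a vesicular transporter known for zinc secretion into milk. Its counts were 104 and 6 in WT with BFP, and 79 and 74 in WT with ISL1. They were 13, 8 and 12 in ISL1-/- with BFP and 0, 9 and 2 in ISL1-/- with ISL1. The 2 WT libraries with BFP spanned nearly the whole range of the gene. Between ISL1 vector groups, ISL1-/- was below WT by log2 -4.60 (SE 1.02, interval -6.75 to -2.45, edgeR adjusted p = 0.0169), a size that depends on the prior count because 1 library is at 0. Leaving out WT with ISL1 replicate 1 or 2, or ISL1-/- with ISL1 replicate 1 or 3, gave adjusted p-values of 0.0687 to 0.0862. With BFP the same contrast was -2.74 with overlapping libraries (edgeR adjusted p = 0.0942), and 0.03 without WT with BFP replicate 1. Counts were 21, 64 and 20 in PAX6-/- and 14, 20 and 3 in PDX1-/- with BFP, and 17, 35 and 5 in PAX6-/- and 20 and 36 in PDX1-/- with ISL1.

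SLC30A3 (chromosome 2, 27253684 to 27275817, minus strand), the transporter of synaptic vesicles, stood with SLC30A2 at the bottom of the family in every group. Its counts were 14 and 15 in WT with BFP and 5 and 9 in WT with ISL1. They were 50, 14 and 123 in ISL1-/- with BFP and 26, 45 and 110 in ISL1-/- with ISL1. All ISL1-/- libraries with the ISL1 vector lay above WT with that vector, by log2 2.85 (SE 0.99, edgeR adjusted p = 0.127). PAX6-/- libraries had 6 to 61 counts and PDX1-/- libraries 6 to 35.

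SLC30A5 and SLC30A6 encode subunits of 1 heterodimer, and SLC30A7 encodes a homodimer, that load zinc into the early secretory pathway for enzymes such as alkaline phosphatases. SLC30A5 (chromosome 5, 69093991 to 69131069, plus strand) was 104 and 119 CPM in WT with BFP and 102 and 101 CPM in WT with ISL1. It was 79.0, 84.6 and 81.5 CPM in ISL1-/-, 87.9, 74.5 and 91.8 CPM in PAX6-/- and 85.04, 94.0 and 93.3 CPM in PDX1-/- with BFP, and 68.6 to 94.6 CPM in knockouts with ISL1. All 17 knockout libraries lay below all 4 WT libraries. The log2 differences from WT with BFP were small, at -0.45 in ISL1-/- (edgeR adjusted p = 0.145), -0.40 in PAX6-/- (adjusted p = 0.208) and -0.30 in PDX1-/- (adjusted p = 0.340). All 3 passed without the 2 libraries that stand apart, at -0.43, -0.41 and -0.32. A gene on the opposite strand, ENSG00000248664, shares 532 exon bases with SLC30A5 and had 0 to 9 counts.

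SLC30A6 (chromosome 2, 32165841 to 32224379, plus strand) was 65.8 to 71.7 CPM in the 4 WT libraries, 37.3 to 60.2 CPM in knockouts with BFP and 20.0 to 63.2 CPM in knockouts with ISL1. SLC30A7 (chromosome 1, 100896076 to 100981757, plus strand) was 102 to 128 CPM in WT, 71.3 to 123 CPM in knockouts with BFP and 38.9 to 108 CPM in knockouts with ISL1. SLC30A9 (chromosome 4, 41990502 to 42090461, plus strand), which encodes a mitochondrial zinc exporter, was 181 to 199 CPM in WT, 128 to 175 CPM in knockouts with BFP and 84.8 to 166 CPM in knockouts with ISL1. The lowest values of SLC30A6, SLC30A7 and SLC30A9 were those of PAX6-/- with ISL1 replicate 3 and PDX1-/- with ISL1 replicate 4. With BFP, the log2 differences from WT in ISL1-/-, PAX6-/- and PDX1-/- were -0.48, -0.51 and -0.40 for SLC30A6 and -0.51, -0.41 and -0.08 for SLC30A7. For SLC30A9 they were -0.42, -0.22 and -0.24. No edgeR adjusted p was below 0.355. Over the 21 libraries the log2 CPM of SLC30A1, SLC30A6, SLC30A7 and SLC30A9 had pairwise Pearson r of 0.83 to 0.93, and the same 2 libraries were low in all 4 genes, while SLC30A8 and SLC30A4 had r = 0.14.

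SLC30A1 (chromosome 1, 211571568 to 211579161, minus strand) encodes the zinc exporter of the plasma membrane. It was 51.0 and 41.8 CPM in WT with BFP, 32.5, 42.2 and 31.8 CPM in ISL1-/-, 57.4, 43.5 and 40.5 CPM in PAX6-/- and 47.0, 45.2 and 53.5 CPM in PDX1-/- with BFP. All 3 knockouts overlapped WT, and the largest of these differences was log2 -0.39 in ISL1-/- (edgeR adjusted p = 0.696). Under the ISL1 vector the ISL1-/- libraries, at 34.9, 27.6 and 21.2 CPM, lay below WT at 48.7 and 45.9 CPM by log2 -0.76 (edgeR adjusted p = 0.373).

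SLC30A10 (chromosome 1, 219685427 to 219959018, minus strand) is known as an exporter of manganese. It was 52.4 and 35.1 CPM in WT with BFP, 33.5, 30.9 and 17.8 CPM in ISL1-/-, 19.6, 29.0 and 15.1 CPM in PAX6-/- and 20.9, 17.4 and 15.6 CPM in PDX1-/- with BFP. Every knockout library with BFP lay below both WT libraries. The log2 differences were -0.68 in ISL1-/- (edgeR adjusted p = 0.474), -1.04 in PAX6-/- (adjusted p = 0.220) and -1.29 in PDX1-/- (adjusted p = 0.0904). The last pair passed without the 2 libraries that stand apart, at -1.05 and -1.31. SLC30A10 under the ISL1 vector was 37.5 and 31.6 CPM in WT, 16.8 to 25.2 CPM in ISL1-/-, 4.32 to 21.7 CPM in PAX6-/- and 19.5 and 33.3 CPM in PDX1-/-.

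**Figure D3:**
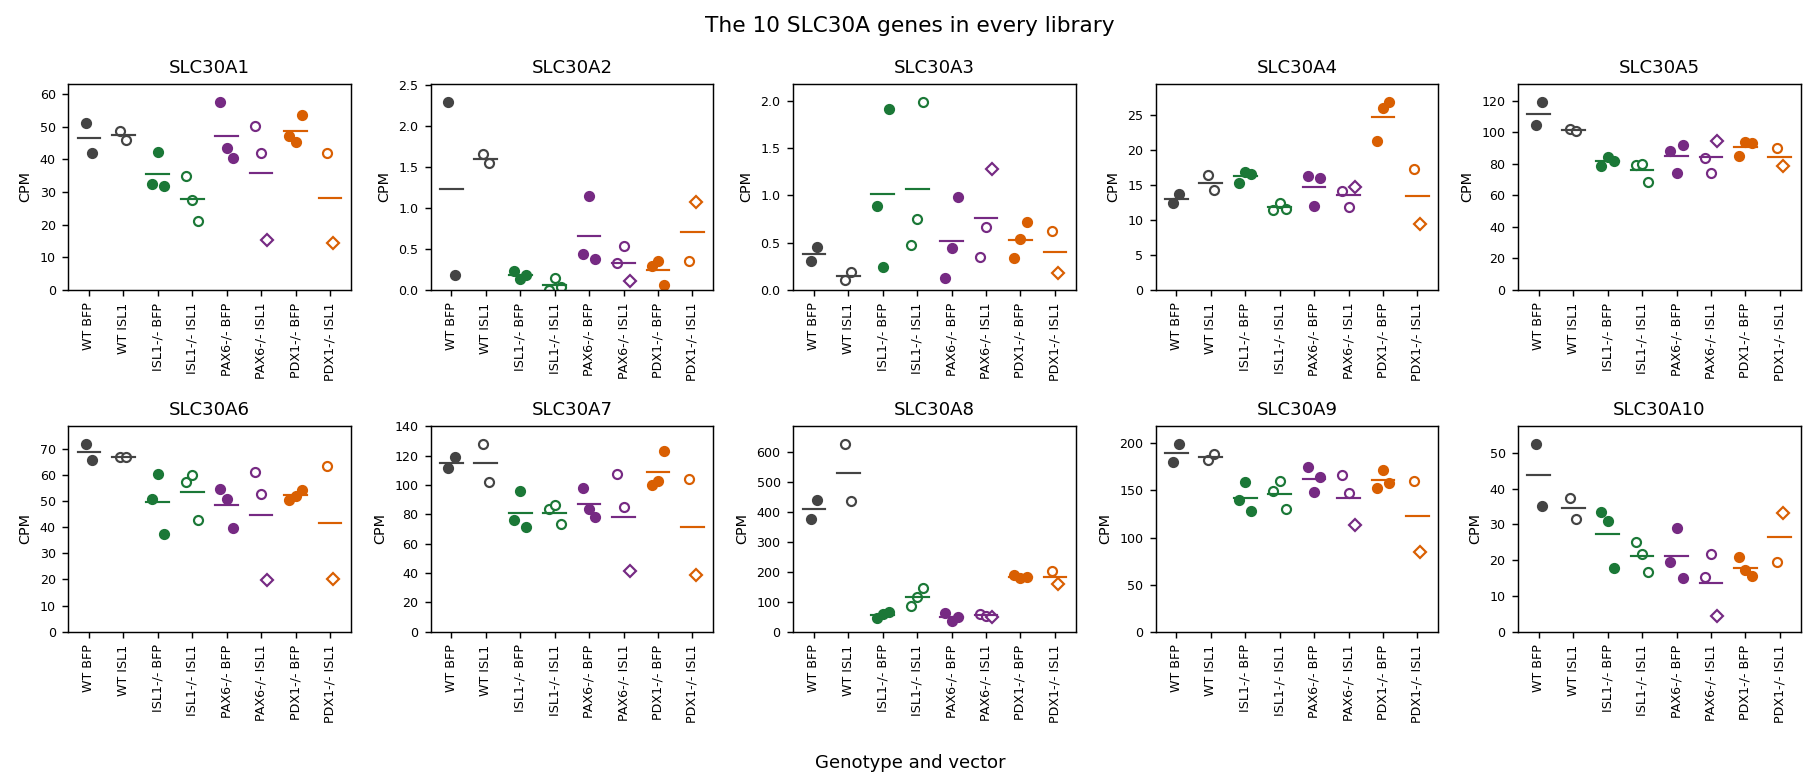
Levels of the 10 members in CPM, each panel starting at 0, in the 21 libraries by group, with filled symbols for BFP, open symbols for the ISL1 vector, diamonds for the 2 libraries that stand apart and lines for group means. SLC30A8 and SLC30A5 are higher in all 4 WT libraries than in any knockout library, and SLC30A4 is highest in PDX1-/- with BFP.

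Counted over the family with the BFP vector, 1 of 10 members was lower in ISL1-/- than in WT (SLC30A8), where 3.92% of all genes tested were lower. In PAX6-/- 1 of 10 was lower (SLC30A8), against 3.26% of all genes. In PDX1-/- 1 was lower (SLC30A8) and 1 higher (SLC30A4), against 5.65% and 4.03% of all genes. Members whose knockout libraries all lay below both WT libraries numbered 6 in ISL1-/- and 6 in PAX6-/- (SLC30A5 to SLC30A10 in both) and 5 in PDX1-/- (SLC30A5, SLC30A6, SLC30A8, SLC30A9 and SLC30A10). The same pattern was met by 25.7%, 23.4% and 25.4% of all genes. Only SLC30A4 had knockout libraries wholly above WT, in ISL1-/- and PDX1-/-, 1, 0 and 1 of 10 members against 26%, 25.1% and 27% of all genes. The median log2 difference of the 10 members was -0.46 in ISL1-/-, -0.40 in PAX6-/- and -0.27 in PDX1-/-, beside 0.03 for all genes tested in each.

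The counts rose without the 2 libraries that stand apart, together with those of all genes. In ISL1-/- with BFP 5 members were then lower (SLC30A2, SLC30A5, SLC30A7, SLC30A8 and SLC30A9), against 12.2% of all genes. In PAX6-/- 3 were lower (SLC30A5, SLC30A8 and SLC30A10), against 11.9%. In PDX1-/- 4 were lower (SLC30A2, SLC30A5, SLC30A8 and SLC30A10) and SLC30A4 was higher, against 14.1% and 13.5%. SLC30A2, with overlapping libraries, had log2 values of -2.74 in ISL1-/- and -2.40 in PDX1-/- in that fit. Both rest on WT with BFP replicate 1, without which, in fits that kept the 2 libraries that stand apart, they were 0.03 and 0.40.

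**Figure D4:**
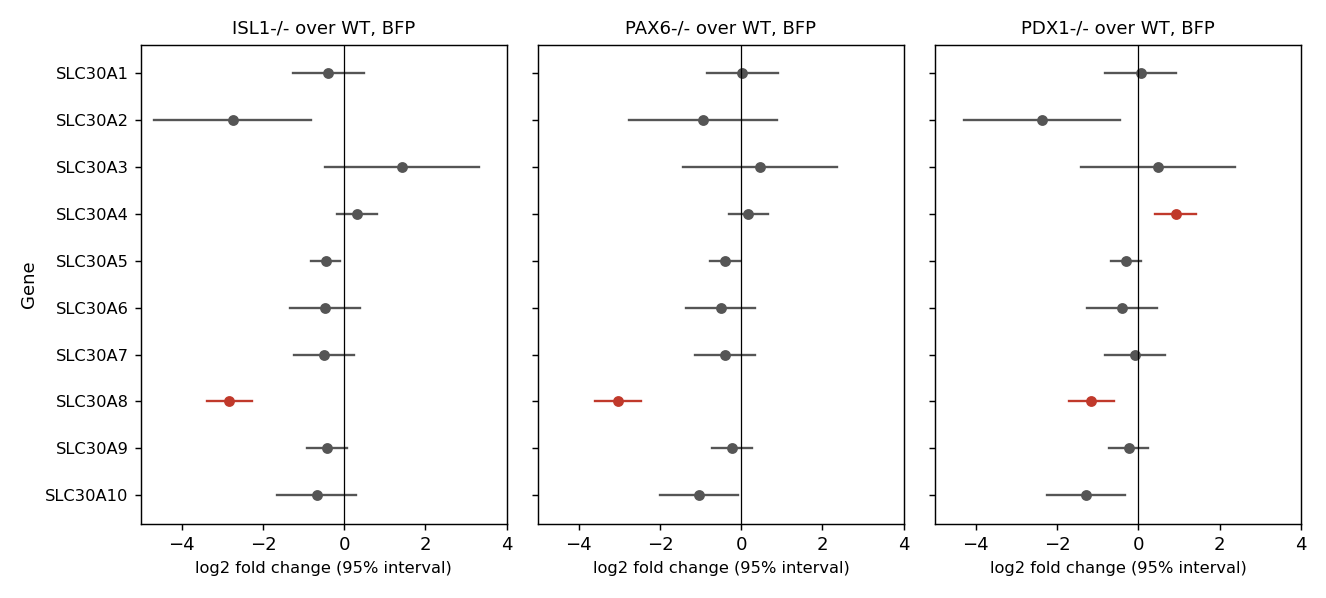
Log2 fold change of the 10 members in each knockout over WT, both with BFP, with 95% intervals, and red for adjusted p under 0.05. SLC30A8 lies at -2.83, -3.04 and -1.15, and the intervals of most other members include 0.

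Between knockouts with BFP, 1 of 10 members was lower in ISL1-/- than in PDX1-/- and 1 of 10 lower in PAX6-/- than in PDX1-/-, SLC30A8 in both, against 2.34% and 1.52% of all genes. SLC30A4 joined SLC30A8 in both without the 2 libraries that stand apart, 2 members against 10.7% and 8.11% of all genes. Between ISL1-/- and PAX6-/- 0 of 10 passed in edgeR, where 2.46% of all genes did in either direction; 1 member had an unadjusted p under 0.05, and DESeq2 and limma voom each called 0. With the ISL1 vector, 2 of 10 were lower in ISL1-/- than in WT (SLC30A2 and SLC30A8), against 2.69% of all genes. In PAX6-/- and in PDX1-/- with the ISL1 vector 1 of 10 was lower, SLC30A8, against 2.3% and 0.286% of all genes. Their median log2 differences were -0.46, -0.48 and -0.64 in ISL1-/-, PAX6-/- and PDX1-/-, beside 0.03, 0.13 and 0.10 for all genes. Without the 2 libraries that stand apart, members that passed numbered 7, 2 and 1, against 19.5%, 12.2% and 6.66% of all genes in either direction.

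For the ISL1 vector over BFP, 0 of 10 members passed in WT, ISL1-/- or PAX6-/- cells in edgeR, where 0.027%, 0.382% and 0.355% of all genes did. At an unadjusted p under 0.05 there were 0, 2 and 0 members, DESeq2 called 0, 1 and 0, and limma voom called 0, 2 and 0. Throughout, counts at an unadjusted p, in DESeq2 or in limma voom have no share of all genes beside them. The shares given are those of edgeR at the adjusted threshold. In PDX1-/- cells 1 of 10 was lower (SLC30A4), against 4.33% of all genes. Without the 2 libraries that stand apart SLC30A8 and SLC30A4 passed in ISL1-/- cells, where 4.93% of all genes did. The members' medians were -0.02, -0.05, -0.14 and -0.34 in WT, ISL1-/-, PAX6-/- and PDX1-/- cells, beside 0.00, 0.03, 0.11 and 0.13 for all genes. In the tests of whether the vector effect of a knockout differed from that of WT, edgeR called 0 members in each knockout, with 1, 0 and 1 members at an unadjusted p under 0.05 in ISL1-/-, PAX6-/- and PDX1-/- (SLC30A4 in both cases). In edgeR 0.00386%, 0% and 1.19% of all genes passed. DESeq2 called 0, 0 and 1 members, and limma voom 0 in each.

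**Figure D5:**
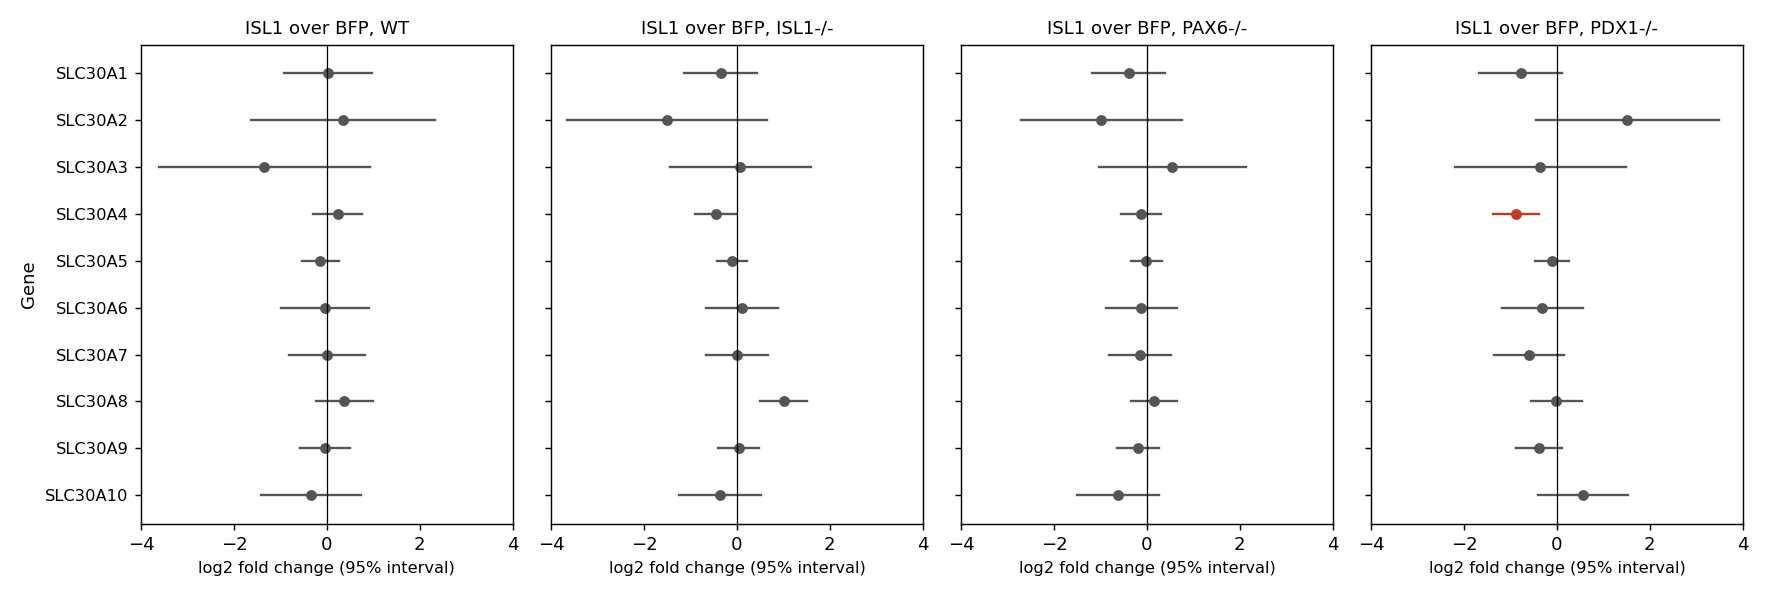
Log2 fold change of the 10 members for the ISL1 vector over BFP in each of the 4 genotypes, with 95% intervals, and red for adjusted p under 0.05. SLC30A8 in ISL1-/- lies at 1.01 with an interval above 0, and SLC30A4 in PDX1-/- at -0.88.

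The opposed importers were taken from a list of 14 SLC39A genes, of which 13 were tested. With BFP, 0 passed in ISL1-/- against WT in edgeR (5 at an unadjusted p under 0.05), 2 were lower in PAX6-/- and 1 was lower in PDX1-/-, where 3.92%, 3.26% and 5.65% of all genes were lower. In PAX6-/- these were SLC39A8, an importer of zinc and manganese, at log2 -1.66 (edgeR adjusted p = 0.0027) and SLC39A11 at -0.64 (edgeR adjusted p = 0.0267, a call lost without any single library of the 5). In PDX1-/- it was SLC39A5, at -2.07 (edgeR adjusted p = 0.0029). The list's medians were -0.15, -0.24 and -0.16. Without the 2 libraries that stand apart, 6, 5 and 3 importers were lower, against 12.2%, 11.9% and 14.1% of all genes, and 1 was higher in PDX1-/-, against 13.5%. SLC39A8 was also lower in PAX6-/- with the ISL1 vector, at -1.91 (edgeR adjusted p = 0.00109). It was the gene that passed against WT among 5 manganese transporters, SLC39A8 and SLC39A14 included.

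SLC39A5 encodes an importer of epithelial cells, pancreas included. It was 76.9 and 67.02 CPM in WT with BFP and 24.3, 13.0 and 14.3 CPM in PDX1-/- with BFP. With the ISL1 vector it was 45.3 and 41.4 CPM in WT, and 40.1 and 90.8 CPM in PDX1-/-. The vector contrast in PDX1-/- cells was 1.93 (edgeR adjusted p = 0.00518), with no overlap between the vectors. SLC39A4 also passed there, at 1.28, with overlapping libraries.

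Metallothioneins bind cytosolic zinc and are induced with SLC30A1 by MTF1. Of 12 genes on that list, MTF1 included, 9 were tested. With BFP, 1 was lower in ISL1-/- than in WT (MT1G at log2 -1.87, a call lost without any single library of the 5), 1 higher in PAX6-/- (MT1F at 2.08) and 1 lower in PDX1-/- (MT1G at -2.88, edgeR adjusted p = 0.00307). Of all genes tested, 3.92% were lower in ISL1-/- and 5.65% lower in PDX1-/- than in WT with BFP. With the ISL1 vector 1 was higher in PDX1-/- than in WT, MT1B at 2.66. Shares of all genes are not given for the calls of MT1F and MT1B. For the ISL1 vector over BFP in PDX1-/- cells, 7 were higher and 1 lower, where 12.5% of all genes passed in either direction. The lower gene was MTF1 itself, at -0.69, named after its value was seen. MT1B was higher by 4.99 and MT1G by 4.75. MT1A had counts of 0, 0 and 1 with BFP and 10 and 15 with ISL1, so its fitted 5.06 depends on the prior count. MT1G counts were 8, 17 and 7 with BFP and 186 and 275 with ISL1 in these cells, so both ISL1 libraries were high. In the fit without the 2 libraries that stand apart, 10 genes of the list were tested and 4 were higher. The share of all genes in that fit is not given here. SLC30A1 did not pass in that comparison, at 47.0, 45.2 and 53.5 CPM with BFP and 41.9 and 14.5 CPM with ISL1. MT1 genes are near-identical copies, so reads may be split among them.

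Of 6 further genes tied to zinc, CPE, a zinc-dependent enzyme of hormone processing, was lower in ISL1-/- than in WT with BFP by log2 -1.81 (edgeR adjusted p = 0.00122), and it was 324, 365 and 401 CPM against 1122 and 1425 CPM. It was lower in ISL1-/- than in PAX6-/- by -1.39 and than in PDX1-/- by -1.56. TMEM163, a vesicular zinc transporter outside the family, was 18.9, 24.2 and 23.7 CPM in PDX1-/- with BFP and 2.68 and 5.02 CPM in WT with BFP (log2 2.54, edgeR adjusted p = 0.00989). Its PDX1-/- libraries with BFP were all high, as were those of SLC30A4. ALPL, an alkaline phosphatase that needs zinc, was higher in PAX6-/- than in WT with BFP by 1.44, a call lost without any single library of the 5. CA4, a carbonic anhydrase, was lower in PDX1-/- with BFP by -3.27 (edgeR adjusted p = 0.00958). Its mean with BFP was 53.85 CPM in WT, 11.5 CPM in ISL1-/-, 13.8 CPM in PAX6-/- and 5.57 CPM in PDX1-/-. Without the 2 libraries that stand apart, CA4 and GPR39, another gene of the list, passed in all 3 knockouts over WT with BFP. TMEM163 then passed in PAX6-/- as well as in PDX1-/-. In that fit 3, 2 and 2 of the 6 were lower in ISL1-/-, PAX6-/- and PDX1-/-, against 12.2%, 11.9% and 14.1% of all genes. In PAX6-/- 2 were higher, a count whose share of all genes is not given here. In PDX1-/- 1 was higher, against 13.5%.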

How the data were processed

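The authors deposited 1 table of raw read counts per gene for 21 libraries, with exon coordinates and lengths, per the file headers; reads were aligned with STAR 2.7.11b and counted with featureCounts 2.1.1 on GRCh38, per the submitters' processing notes. Read type, strand setting and treatment of multiply mapped reads are not given in the sources used here. An entry broken over 3 lines was left out, which left 62699 genes, all matched to a symbol.

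Groups came from titles and descriptions, and replicate numbers from descriptions. Counts were tested with edgeR 4.0.16 (R 4.3.3) in 1 quasi-likelihood fit of 8 groups after TMM scaling and a filter on low counts (minimum 10 in enough libraries, total 15), which kept 25884 genes. Adjusted p-values are Benjamini-Hochberg within each of 16 comparisons, with a threshold of 0.05. Fold changes used a prior count of 0.125 and log2 CPM a prior count of 2. The common biological coefficient of variation was 0.334. CPM are counts per 1000000 of the scaled library size, and RPKM divides CPM by the exon length in the table. The fit was also run on simulated counts, with a coefficient of variation of 0.334 for every gene and no library set apart. That run does not show how the fit behaves with the 2 libraries that stand apart.

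Alternatives were DESeq2 1.42.0, DESeq2 size factors, limma 3.58.1 (voom with sample weights), no filter, only the groups compared, replicate blocks, and leaving out each library or both that stand apart; a library left alone in its group was assumed to vary like the other groups. Replicate numbers were taken to pair libraries where 3 pairs all deviated together with r over 0.1. Comparisons with a group of 2 libraries hold fewer than 3 pairs, so the rule could not be met there and pairing was not judged. Among the rest, the rule was met only between vectors in PAX6-/- cells (r = 0.155, 0.391 and 0.333), where the block changed no call of a member. It was narrowly missed between vectors in ISL1-/- cells (0.183, 0.0990 and 0.293). All 10 members are named; of other zinc lists, up to 3 genes with the largest change per list and comparison; likeness lists hold 5 genes. The members, lists and named-gene rule were chosen with earlier results of these data known. Sequences are from RefSeq. Figures were drawn with matplotlib 3.10.9.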

Additional observations from a re-analysis of the deposited data

Results flagged for a closer look

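No member of the family was set apart by a test of whether the ISL1 vector acted differently in a knockout than in WT cells. Among the other zinc genes, 4 were, all in PDX1-/- cells. Those tested were 13 SLC39A genes, 9 of the metallothionein list, 5 manganese transporters and 6 further genes. SLC39A8 and SLC39A14 are on 2 of these lists. Of all genes tested, 1.19% passed this test in PDX1-/-, 0.00386% in ISL1-/- and 0% in PAX6-/- cells. For these 4, the log2 difference between ISL1 vector and BFP in PDX1-/- exceeded that in WT cells by an edgeR interaction test. It exceeded it by 5.04 for MT1G (adjusted p = 0.00542), which kept the call in 8 of 9 fits that each left out 1 library of these 4 groups. It exceeded it by 2.66 for the importer SLC39A5 (adjusted p = 0.0337, 2 of 9 fits) and by 3.92 for MT1B (adjusted p = 0.0371, 2 of 9 fits). For CA4 it was 4.68 (adjusted p = 0.0489, 1 of 9 fits). CA4 was 6.86 CPM in replicate 2 and 189 CPM in replicate 4 of PDX1-/- with ISL1, and 4.22 to 8.25 CPM with BFP. Without the 2 libraries that stand apart MT1G, MT1B and SLC39A5 passed, at 4.28, 4.23 and 1.98, and CA4 did not.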

How the results depend on the processing

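No member's change that passed the threshold reversed its sign in these fits, while the number that passed varied. Changes that did not pass could cross 0 without 1 library, among them SLC30A2 with BFP (0.03 in ISL1-/- and 0.40 in PDX1-/- over WT without WT with BFP replicate 1) and SLC30A8 between vectors (-0.05 to 0.36 in PAX6-/-, -0.21 to 0.16 in PDX1-/-). In the order ISL1-/-, PAX6-/- and PDX1-/- over WT with BFP, 1, 1 and 2 members passed; DESeq2 gave 3 and 2 for the first pair, limma voom 4, 3 and 4, the groups compared alone 5, 2 and 4, the replicate block by description number 2, 2 and 4, and leaving out both libraries that stand apart 5, 3 and 5. Without a filter ISL1-/- over WT gave 2. ISL1-/- over PDX1-/- and PAX6-/- over PDX1-/- gave 1 each and 2 each in DESeq2, in the groups alone, with the block and without both libraries, and 5 and 2 in voom. With the ISL1 vector the 3 knockouts gave 2, 1 and 1 over WT, voom 6, 3 and 0, the groups alone 8 for ISL1-/- and 0 for PDX1-/-, the block 2 for PAX6-/- and 0 for PDX1-/-, and the fit without both libraries 7 and 2 for ISL1-/- and PAX6-/-. The vector contrast in ISL1-/- gave 0, and 1 in DESeq2 and with the block and 2 in voom, in the groups alone and without both libraries. In PDX1-/- it gave 1, and 0 in voom, without a filter, in the groups alone, with the block and without both libraries. The interaction for PDX1-/- gave 0, and 1 in DESeq2. With the block by description number SLC30A8 had an adjusted p of 0.0319 for the vector in ISL1-/- and 0.0721 for PDX1-/- over WT with the ISL1 vector. Most counts of members here and below are given without the share of all genes that each fit called. Such counts do not show a change particular to the family. The cause of the shifts between fits was not tested.

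Leaving out 1 library at a time gave 1 to 2, 1 to 1 and 0 to 3 members for the 3 knockouts over WT with BFP, and 1 to 2 for either of them over PDX1-/-. It gave 1 to 2, 1 to 2 and 0 to 6 with the ISL1 vector, 0 to 1 for the vector in ISL1-/-, 0 to 5 in PDX1-/- and 0 to 4 for its interaction. The 6, 5 and 4 arose without PDX1-/- with ISL1 replicate 2, which leaves replicate 4, a library that stands apart, as the only one of its group. The number of all genes past the threshold moved too, from 1448 to 6417 for ISL1-/- over WT with BFP without both libraries. The block by title number and DESeq2 size factors moved no count of members by more than 1.5 times. Depth did not limit SLC30A8, while SLC30A2 and SLC30A3 rested on 0 to 123 counts per library.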
